A study of Mus musculus with 6 samples.

Results

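The transcripts described here come from the mouse locus of the microRNA genes Mir212 and Mir132. They are the 2 microRNA genes, the noncoding transcript 1700016P03Rik that carries them in an intron, and Ovca2, a protein-coding neighbour on the other strand. They were taken by symbol from the authors' deposited table and are 4 of its 637 genes. The table lists genes that the authors called, so the members were chosen from the contrast described below and their values are a description. RNA came from the hippocampus of C57BL/6 mice aged 56 days, with 3 samples after focal middle cerebral artery occlusion, a stroke model, and 3 after the sham operation that serves as its control. All 6 are titled 2 h, and it is not said whether this counts the occlusion itself or the time since surgery. Nothing in the labels ties a sample to an animal of its own, so the spread behind the authors' p-values may be technical. The deposited columns are headed M2 and S2; M was taken as middle cerebral artery occlusion and S as sham, and all directions depend on this. Markers of the hippocampus could not be checked, because uncalled genes are not listed.

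A microRNA gene is transcribed as part of a longer primary RNA. The hairpin in it is cut out and processed to a short mature strand, whose bases 2 to 8, the seed, pair with target messenger RNAs and lower their output. The miR-132 and miR-212 genes are known in neurons as a cluster induced by synaptic activity through the transcription factor CREB. miR-132 is known to promote dendrite growth, in part by lowering a GTPase-activating protein encoded by Arhgap32. Ovca2 encodes a small serine hydrolase of little known function.

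The mature strands are shown because they define which targets the 2 genes share. Capitals mark the seed, and sequences are from RefSeq (GRCm38.p6, plus strand).
miR-132-3p: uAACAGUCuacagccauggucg
miR-212-3p: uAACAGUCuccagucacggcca
miR-132-5p: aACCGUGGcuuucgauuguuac
miR-212-5p: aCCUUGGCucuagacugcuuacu
The 3p strands have the same seed, AACAGUC, and the same first 9 bases. They are alike at 17 of 22 positions. Counted from the 5′ end of miR-132-3p, the differences to miR-212-3p are A10C, C14U, U17C, U20C and G22A. The 5p strands have seeds of their own, ACCGUGG and CCUUGGC.

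The RefSeq hairpins are shown with the mature strands in capitals, as the annotated extent of the microRNA genes. The exact stretches over which the authors counted reads are not stated. Mir212 lies at chr11:75173388-75173478 and Mir132 at chr11:75173682-75173747 in GRCm38.p6.
Mir212 hairpin: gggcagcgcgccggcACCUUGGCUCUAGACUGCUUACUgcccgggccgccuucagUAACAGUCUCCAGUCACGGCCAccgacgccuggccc
Mir132 hairpin: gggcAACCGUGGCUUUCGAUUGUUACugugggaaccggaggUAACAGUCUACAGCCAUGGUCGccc
These hairpins are 91 and 66 bases long. It is not stated whether the library protocol kept or lost very short RNA, so reads on a hairpin cannot be told apart as primary transcript, precursor or mature strand.

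In GENCODE M21 the host 1700016P03Rik has 3 exons of 38, 184 and 641 bases. Both hairpins lie in its first intron, of 1380 bases, on the same strand, with 203 bases between them. The hairpins share 0 bases with the host's annotated exons. By this annotation a read inside a hairpin belongs to the unspliced RNA or to its products. An exon missing from the annotation was not looked for. All 641 bases of exon 3 lie inside an exon of Ovca2 on the opposite strand. They make up 74.3% of the host's exonic bases and 24.0% of those of Ovca2. Without strand, reads from this stretch cannot be told apart between the host and Ovca2. Ovca2 also shares 969 exonic bases with Dph1, an enzyme gene of diphthamide synthesis on its own strand. The first 222 exonic bases of the host, shown next with exon 1 in capitals, are free of that overlap (GRCm38, plus strand, chr11:75172560-75172597 and chr11:75173978-75174161).
1700016P03Rik exons 1 and 2: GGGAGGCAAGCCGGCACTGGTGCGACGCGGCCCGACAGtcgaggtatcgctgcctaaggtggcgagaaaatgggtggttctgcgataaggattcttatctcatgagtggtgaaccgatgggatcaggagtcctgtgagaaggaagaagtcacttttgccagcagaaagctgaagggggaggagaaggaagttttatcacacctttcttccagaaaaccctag

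The 4 transcripts were higher in ischemia in the authors' deposited table, and they form 2 tiers. The host and both microRNA genes rose 15.5- to 18.7-fold, and Ovca2 rose 2.34-fold. Of all genes the authors tested, 2.25% were called, 1.47% higher and 0.784% lower. The members were picked from those calls, so their own count carries no weight. At an adjusted p of at most 0.01, which 1.27% of all tested genes passed, the host and Ovca2 were left. Under a Bonferroni correction, which 0.561% passed, Ovca2 was left. A rise in bulk tissue may reflect more RNA per cell or more cells of a type, and these cannot be told apart. Values per library below were separated from the authors' means by integer arithmetic, and the sham libraries are lettered A, B and C.

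The host transcript 1700016P03Rik was at 284, 163 and 278 normalised reads in sham libraries A, B and C (mean 242 ± 67.9, SD, n = 3). Its ischemia mean was 3759 in the authors' deposited table. Library B was the low one in sham, and the ischemia mean lay far above all 3. The log2 fold change was 3.96 in the authors' deposited table, or 15.5-fold (adjusted p = 0.0020). With single sham libraries left out it ranged from 3.74 to 4.09. The ischemia mean of the host can be made from 392 sets of whole counts, so its spread in ischemia is not known.

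Mir212 was even across sham, with 104, 97.6 and 99.99 normalised reads in libraries A, B and C (mean 100.5 ± 3.30, SD, n = 3). These values rest on 91, 108 and 120 whole reads. The ischemia mean was 1665 in the authors' deposited table, a log2 fold change of 4.05 or 16.6-fold (adjusted p = 0.0121). Its coefficient of variation in sham, 3.28%, was below the lower quartile of 9.01% among 136 listed genes with sham means of 50 to 450, while that of the host, 28.1%, was above their upper quartile of 19.5%. Each of these spreads rests on 3 libraries, and the difference in evenness was not tested. The ischemia mean of Mir212 can be made from 62 sets of whole counts, so its spread is not known either.

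Mir132 was scarce in sham. Libraries A, B and C held 34, 9 and 24 whole reads, or 38.9, 8.13 and 20.0 normalised reads (mean 22.3 ± 15.5, SD, n = 3). The highest was 4.78 times the lowest. In ischemia the mean was 418 in the authors' deposited table, a log2 fold change of 4.23 or 18.7-fold (adjusted p = 0.0449). That size depends on sham library A: without it the log2 fold change was 4.89, or 29.7-fold. It was 3.83 without sham library B.

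The ischemia mean of Mir132 fits 2 sets of whole counts. One gives 683, 14.8 and 557 normalised reads in ischemia libraries A, B and C, and the other gives 728, 346 and 180. In the first set library B lies within the sham range, and in the second all 3 ischemia libraries lie above it. Library A is the highest in both. Whether the groups overlap is therefore not settled for Mir132, and the share of all genes without overlap was not computed. Over both sets and each left-out ischemia library, the log2 fold change of Mir132 ranged from 3.56 to 4.79, or 11.8- to 27.7-fold. The lowest value came from leaving out library A and the highest from leaving out library B.

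Ovca2 was as even in sham as Mir212, at 292, 271 and 282 normalised reads in libraries A, B and C (mean 282 ± 10.4, SD, n = 3). Its ischemia mean was 660 in the authors' deposited table, a log2 fold change of 1.23 or 2.34-fold (adjusted p = 4.81e-08). It is the member with the smallest fold and the smallest p-value. The ischemia mean fits 3 sets: 715, 221 and 1044 normalised reads in libraries A, B and C, or 760, 552 and 667, or 806, 884 and 291. All 3 ischemia libraries exceed every sham library in the second set and 2 of 3 do in the others. The coefficients of variation in ischemia were 62.8%, 15.8% and 48.8% in the 3 sets in turn. Which set goes with the small p-value was not tested, since the authors' test is not stated. The share of all genes whose groups do not overlap was not computed. With single sham libraries left out the log2 fold change stayed between 1.20 and 1.25.

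**Figure D1:**
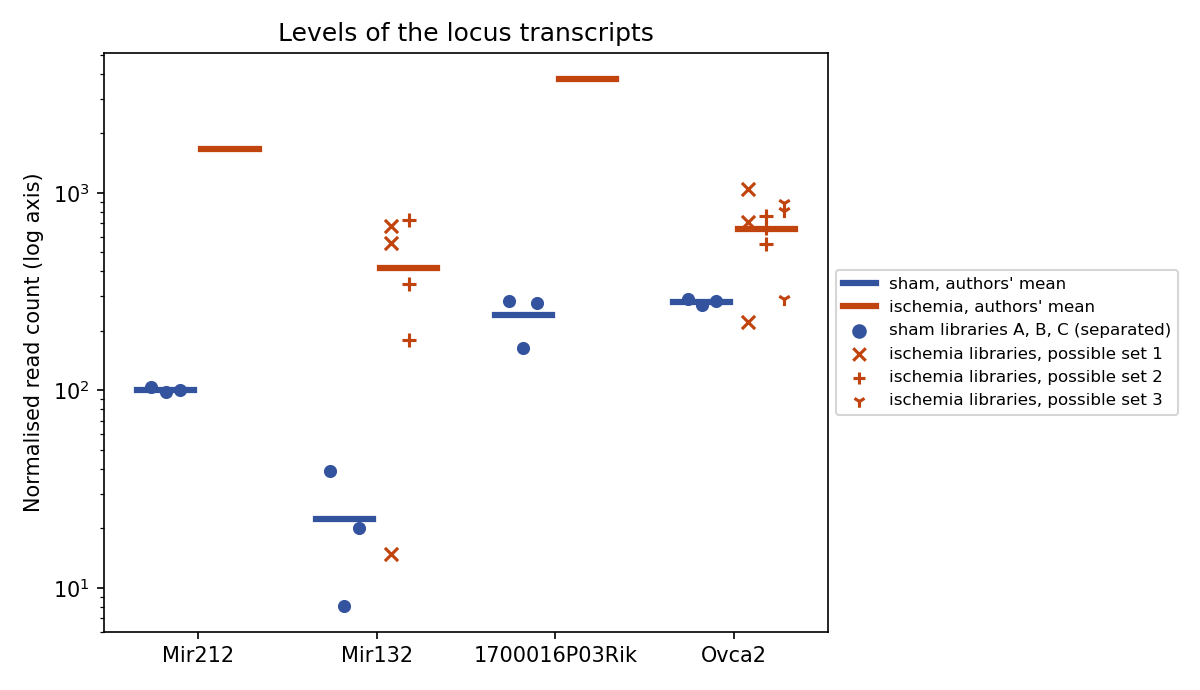
Normalised read counts (log axis) of the 4 locus transcripts, with bars for the authors' group means, dots for the separated sham libraries and crosses for each possible set of ischemia libraries. Mir212 and Ovca2 are tight in sham and Mir132 spreads 4.78-fold; no ischemia libraries are drawn for Mir212 and 1700016P03Rik, which have 62 and 392 possible sets.

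By the authors' group means, the proportion of each microRNA gene to the host was similar in both groups. The authors' deposited means give 2.41 host reads for each Mir212 read in sham and 2.26 in ischemia. They give 10.8 host reads for each Mir132 read in sham and 8.99 in ischemia. On the log2 scale Mir212 rose by 0.09 more than the host and Mir132 by 0.27 more. Within sham, Mir212 was 36.7%, 59.7% and 35.9% of the host in libraries A, B and C, and Mir132 was 13.7%, 4.97% and 7.19%. Those spreads, of single sham libraries, are wider than the differences between groups, which are differences of group means. The sign of the difference for Mir212 also turned without sham library A (-0.01) or C (-0.03), and that of Mir132 moved to 0.80 without sham library A. No difference between the hairpins and the host was therefore detectable beyond the sham spread, which does not show that the proportions were equal. The spread of Mir212 and of the host in ischemia is not known.

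Per length of GENCODE exons, the order of levels was the same in both groups. Mir212 had 1105 normalised reads per kilobase in sham and 18295 in ischemia, Mir132 had 338 and 6335, the host 280.2 and 4356, and Ovca2 106 and 247. The neighbours Mir132 and the host were close in sham, where their order is within the spread of Mir132. A feature as short as a hairpin also collects reads that reach beyond its ends. The hairpin levels per length are therefore too high by an amount that depends on the read length, which is not stated. Most identifiers carry a BALB/cJ strain prefix, so the exons over which the authors counted may differ in length from those of GENCODE.

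Ovca2 and the host differed in size of change. Ovca2 gained 378 normalised reads and the host 3517, so the gain of Ovca2 equals 10.8% of that of the host. In sham the relation was the other way, with 0.858 host reads for each Ovca2 read, against 5.70 in ischemia. Within sham the host varied 1.73-fold between libraries and Ovca2 1.08-fold. Whether reads from exon 3 of the host entered the Ovca2 value was not tested, since strand use is not stated. Dph1, which overlaps Ovca2 and ends 9 bases from the host, is not listed. Hic1, a transcriptional repressor gene that starts 3040 bases before the host on the opposite strand, is not listed either. Of the 10 nearest RefSeq genes on each side, 20 in all and 10 of them protein-coding, 0 are listed. Against 2.25% of all tested genes, a count of 0 among 20 is near the background and shows nothing about the neighbourhood. Absence from the table gives no level and no fold for them.

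The 3 large rises had larger p-values than most listed genes of similar fold. Besides the members, 16 listed genes had a log2 fold change within 0.5 of the host's, with a median adjusted p of 0.000124 in the authors' deposited table. Of these 16, the p-value was smaller than that of the host in 10, than that of Mir212 in 13 and than that of Mir132 in 15. These 16 genes had a median sham mean of 64.3, below the host and above Mir132. Only 36 of the 637 listed genes had a larger adjusted p than Mir132 in the authors' deposited table. By fold the order was reversed: 20 listed genes had a larger log2 fold change than the host, 18 than Mir212 and 14 than Mir132.

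Genes with the most similar fold were sought over the 2 group means alone, by the difference in log2 fold change. Nearest to the host were Dsc1 (3.98 on the log2 scale), a desmosome gene at 1.26 normalised reads in sham, the immediate-early factor Egr4 (3.92) and the neuronal pentraxin Nptx2 (3.91) in the authors' deposited table. Nearest to Mir132 were the kinase gene Pim1 (4.21), the immediate-early factor Egr2 (4.18) and the cytokine Il1b (4.11) in the authors' deposited table. Nearest to Mir212 were Il1b, Dsc1 and Egr2. Nearest to Ovca2 were the chemokine Ccl6 (1.23), the RNA-binding protein gene Zfp36l1 (1.24) and the innate immune receptor Tlr2 (1.24) in the authors' deposited table. Levels of these genes ranged widely, from 19.97 normalised reads in ischemia for Dsc1 to 28505 for Egr4.

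Because the cluster is known as a CREB target, genes known to be driven by CREB and neuronal activity were set beside it. Of 39 such genes 29 rose, 0 fell and 10 were not listed, which is 74.4% against 2.25% of all genes tested. The list was written with these data known and is no independent support. Its listed members had a median fold of 8.49, against 2.10 for the 415 higher genes of the whole table. The 6 with the smallest p-values were Npas4 (76.5-fold), Nr4a1 (8.01-fold), the phosphatase gene Dusp1 (5.27-fold), Atf3 (62.6-fold), Fos (37.4-fold) and Junb (8.42-fold) in the authors' deposited table. Dusp1 encodes a brake on MAP kinases, and the other 5 encode transcription factors. The host exceeded 23 of the 29 in log2 fold change, with 6 above it, and 4 were above Mir132. The host's sham mean of 242 was low for the list, where 3 members were lower still. In adjusted p, 23 of the 29 were smaller than that of the host and all 29 were smaller than that of Mir132.

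**Figure D2:**
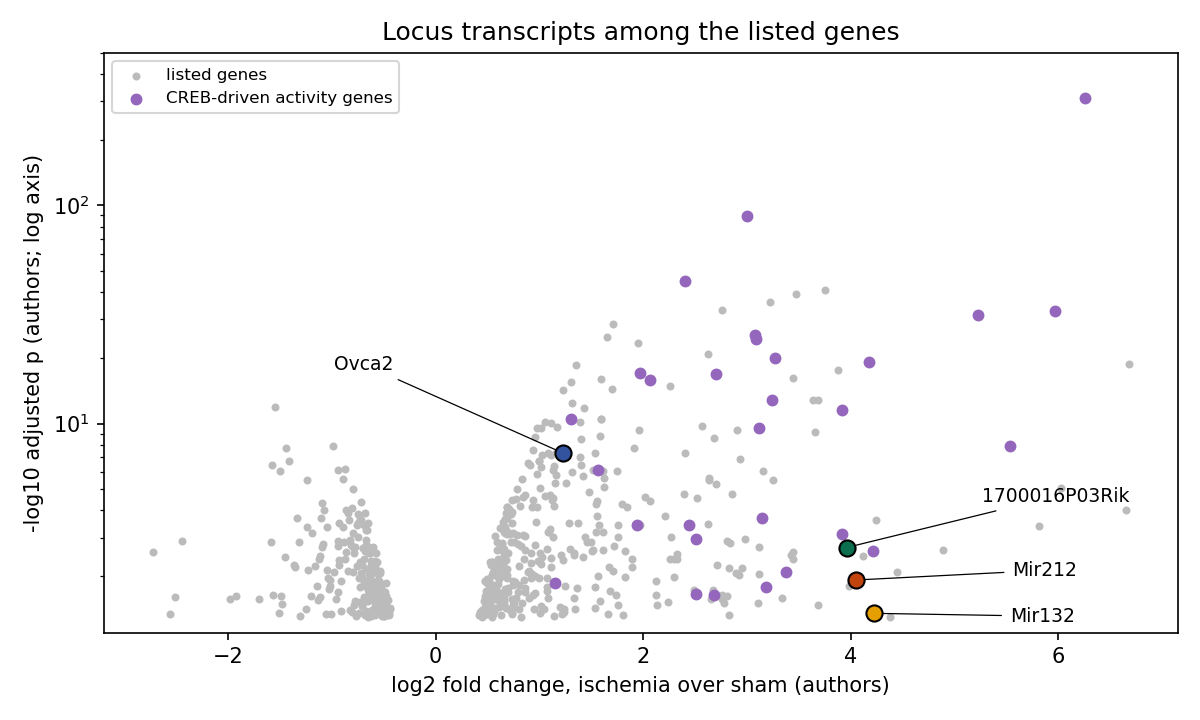
Log2 fold change and -log10 adjusted p (log axis) of the listed genes in the authors' deposited table, without the 2 listed at 0 in sham. The host and both microRNA genes lie near 4 on the horizontal axis and low on the vertical axis, below most CREB-driven genes, and Ovca2 lies at 1.23.

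The microRNA processing genes give no values here. The list held 26 genes for the hairpin-cutting enzymes Drosha, Dgcr8 and Dicer1, the exporter Xpo5, the Argonaute proteins and their partners, and 0 were called in either direction by the authors' test. With 2.25% of all tested genes called, a list of this size would be near 0 in any case, so the count is no result about these genes. Counts at an unadjusted threshold cannot be given, since uncalled genes are not in the table.

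Candidate targets of miR-132 and miR-212 were mostly not listed. Of 26 genes, 4 rose, 1 fell and 21 were not listed, which is 19.2% against 2.25% of all genes tested. This list too was chosen with earlier results of these data known, so the share is no independent support. The risers were the cell cycle inhibitor Cdkn1a (from 784 to 3924 normalised reads, 5.01-fold), Btg2, an antiproliferative gene (from 1011 to 9195, 9.09-fold), the orphan nuclear receptor Nr4a2 (from 3511 to 19927, 5.68-fold) and the growth factor Hbegf (from 416 to 691, 1.66-fold) in the authors' deposited table. Btg2 and Nr4a2 are also on the CREB list. The one that fell was the histone acetyltransferase Ep300, which went from 4089 to 2762 normalised reads (1.48-fold lower, adjusted p = 0.0048) in the authors' deposited table. At an adjusted p of at most 0.01, 1 riser and Ep300 were left. Among those not listed were Arhgap32 and Foxo3, so their levels are unknown here.

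The match to the shared seed, GACTGTT in DNA letters, was searched on the sense strand of 3′ untranslated regions from GENCODE M21. It occurs in 20 of the 25 candidate targets with such a region, against 9.97% of 20080 coding genes. The candidates were known as targets, so this checks the list and is no result of the ischemia. The first match is shown for 3 listed genes and for Arhgap32, with the seed match in capitals.
Nr4a2: aaacttgcatgcagcagcttttGACTGTTt
Hbegf: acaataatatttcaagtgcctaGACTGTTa
Ep300: atgaactttggatcactgtataGACTGTTa
Arhgap32: aagcagcctctgctggacagtgGACTGTTc
Of the 20 genes with a match, 3 rose, 1 fell and 16 were not listed, where 2.25% of all tested genes were called. The list was chosen with these data known, so this count is no result about genes with a match. Cdkn1a, which rose, has no GACTGTT in the region searched. A match is a description of the letters and not a shown site of binding.

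The 1700016P03Rik transcript was the host with the largest rise among listed genes that contain a microRNA gene. In GENCODE M21, 19 listed genes have a microRNA gene inside them on the same strand, 12 higher and 7 lower, with 21 microRNA genes in all. The whole table held 415 higher and 222 lower genes, a similar split. How many of all tested genes contain a microRNA gene was not computed, so these counts are no result about hosts. The host of this locus is the single one of the 19 whose microRNA genes are themselves listed, both of 2. Only 2 listed genes have a symbol that starts with Mir, and these are the members Mir212 and Mir132. That this host stands alone therefore follows from the choice of members and is no result about hosts. The next largest rises were Ifrd1 (7.07-fold), which contains Mir1938, and Mest (3.82-fold), which contains Mir335, in the authors' deposited table. Srf, a transcription factor gene of the activity response with Mir6976 inside, rose 1.94-fold, and Vmp1, an autophagy gene that contains Mir21a, rose 1.82-fold in the authors' deposited table. Dleu2, the noncoding host of Mir15a and Mir16-1, rose 2.06-fold in the authors' deposited table. Whether those other microRNA genes were measured is not shown by their absence, and the difference between hosts was not tested.

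**Figure D3:**
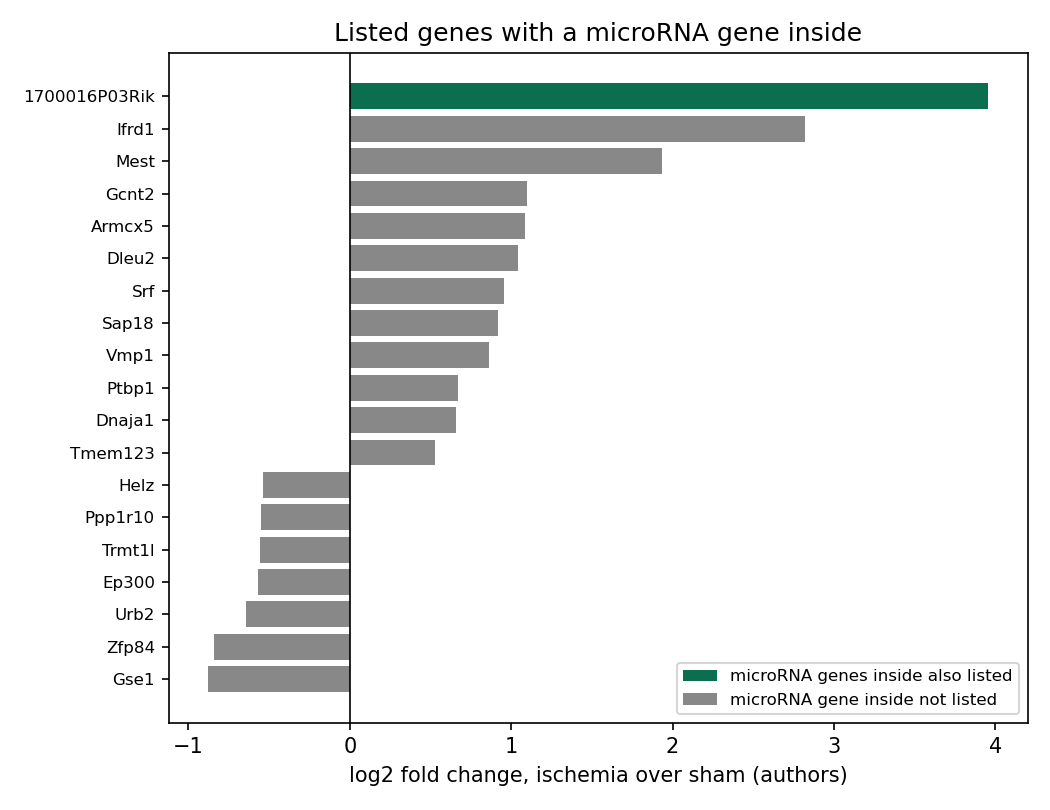
Log2 fold change, ischemia over sham, of the 19 listed genes that contain a microRNA gene on the same strand, from the authors' deposited table. The 1700016P03Rik bar, at 3.96, is the longest and the only green one, which marks listed microRNA genes. The green mark follows from the choice of Mir212 and Mir132 as members.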

How the data were processed

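RNA was sequenced from 6 hippocampus samples, 3 after ischemia and 3 after a sham operation. The authors deposited 1 table of 637 called genes with 1 mean read signal (a normalised read count) per gene and group, per the file headers. The deposited log2 fold change equals the log2 of one mean over the other, with no pseudocount. The p-value and adjusted p-value are the authors' own. Bowtie 0.12.2 and build mm8 are named in the submitters' processing notes without a role, while 612 identifiers carry a BALB/cJ strain prefix. The counting program, use of strand, library selection, normalisation and test are not stated in these sources, and depth per sample is unknown. No column holds single samples, so the limma test fixed for such values was not run. Every test result is the authors'.

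The number of genes tested, 28319, was found by matching adjusted p-values computed by the Benjamini-Hochberg method to the deposited ones, which agree within the printed digits in 636 rows. Each group mean is a sum of 3 whole counts times fixed steps, which lattice reduction recovers. In ischemia 135 of 172 means up to 450 had 1 set of whole counts and in sham 189 of 195. On simulated data (4 group columns of 637 genes), all 629 means with 1 set were split correctly. Means with several sets or above 450 were not checked in this way, and the ischemia means of all 4 members are of that kind. Recovered size factors lay between 0.837 and 1.20. Letters A to C run from the smallest size factor to the largest, and no letter can be tied to a replicate number. Intervals or spreads from these counts cover the sampled libraries only.

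Gene models are from GENCODE M21 (GRCm38) and microRNA sequences from RefSeq (GRCm38.p6), matched by symbol, for both microRNA genes. A gene's 3′ untranslated region came from its coding transcript with the longest coding sequence and was used from 50 bases upward. Named genes are the members, list members with the smallest p-values (up to 6 a list), any called member against its list's direction, and the 3 nearest in log2 fold change to each member. The rule also held the 3 genes on each side in rank by fold, which are given only where they are among those nearest. Some items under the rule are not reported here. Genes named as hosts of other microRNA genes were chosen after their values were seen. The members and lists were chosen with earlier results of these data known. Alternatives were other thresholds, pseudocounts of 1 and 10, recentring, and leaving out single libraries. Python 3.11.15, numpy 2.4.6, pandas 2.3.3, sympy 1.14.0 and matplotlib 3.10.9 were used.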

Additional observations from a re-analysis of the deposited data

How the results depend on the processing

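No paired analysis was possible because the table holds group means, and the separated libraries carry no replicate numbers. Of the 4 called members, 4 stayed when a log2 fold change of 1 or more was required. The members were taken from the called genes, so this only restates their folds. The share of all genes passing that cut was not computed. A mean of at least 50 over both groups also left 4, but Mir132 passes it only through its ischemia mean, so this says nothing about its stability. At an adjusted p of at most 0.01, 2 stayed (the host and Ovca2) and under a Bonferroni correction 1 stayed (Ovca2). All members kept a positive log2 fold change in every alternative run. Pseudocounts and recentring could not turn folds of this size, and the members were taken from the called genes, so this is no independent support. A pseudocount of 10 gave 3.73 for Mir132 (13.2-fold, from 18.7-fold) and 3.92 for Mir212. Recentring on the median of all listed genes, 0.66, gave 3.57 for Mir132 (11.9-fold), 3.39 for Mir212, 3.30 for 1700016P03Rik and 0.57 for Ovca2. That median covers called genes only, 415 higher and 222 lower. It is therefore no estimate of a shift over all tested genes. Leaving out single ischemia libraries, over the 3 possible sets, gave 0.73 to 1.64 for Ovca2. The lowest came without library C and the highest without library B, both of the first set. In the second set the range was 1.11 to 1.34 and in the third 0.96 to 1.58. Leaving out ischemia libraries was added after the data were seen. The difference between Mir132 and the host turned to -0.18 with a pseudocount of 10. Higher candidate targets went from 4 to 1 at an adjusted p of at most 0.01, and lower ones from 1 to 0 when a log2 fold change of 1 or more in size was required. No test of the members could be repeated, and leaving out ischemia libraries was not run for Mir212 and 1700016P03Rik, whose counts could not be separated. The low reads of Mir132 in sham limit the precision of its fold.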

Other observations

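The seed match of miR-132-3p and miR-212-3p was about as frequent among higher as among lower genes. It occurred in the 3′ untranslated regions of 40 of 344 higher genes (11.6%) and 26 of 199 lower genes (13.1%), against 9.97% of all 20080 coding genes. These regions had a median of 1351, 1702 and 841 bases in turn. Per kilobase there were 0.0733 matches in higher genes, 0.0747 in lower genes and 0.0822 in all coding genes. The match to the seed of miR-212-5p, GCCAAGG, was in 11.3% of higher and 17.1% of lower genes, at 0.0750 and 0.0888 per kilobase against 0.0852 in all coding genes. The match to the seed of miR-132-5p, CCACGGT, was in 3.78% of higher and 5.53% of lower genes, against 2.41% of all coding genes. At 0.0244 and 0.0257 per kilobase it was denser than the 0.0185 of all coding genes in both directions. These shares were not tested, and genes are not independent.

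The RefSeq promoter of Ovca2, from 250 bases before its start, holds neither the full CREB motif TGACGTCA nor its core TGACG on either strand. The full motif is in 1.79% of 32851 promoters of this length and the core, which the full motif contains, in 20.8%. The promoter of 1700016P03Rik was not analysed here.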
